A study of Mus musculus with 6 samples.

Results

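The genes described here are 9 chemokines and chemokine receptors, namely the receptors Cx3cr1, Cxcr2 and Cxcr4 and the ligands Cx3cl1, Cxcl12, Cxcl14, Cxcl16, Ccl3 and Ccl4. They were picked by symbol, and their values in the comparison were not part of the rule. The list itself was chosen with earlier results of these data known. Of the 9, 7 had a row among the 15388 genes of the deposited table, and all 7 passed the filter on low values that left 15344 genes for testing. Ccl3 and Ccl4 were not analysed here.

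Ribosome-bound RNA was taken from the hippocampus of 3 Cx3cr1-Cre/Ert2+; NuTRAP+ mice, numbered 201, 207 and 208. The study used males and females of about 3 months, the age at which tamoxifen was given. The Cre recombinase is activated by tamoxifen and is made from the Cx3cr1 gene itself, into which it was inserted. NuTRAP then puts a GFP-tagged ribosomal protein on the ribosomes of every cell in which Cre has acted, and antibody against GFP pulls those ribosomes down with their RNA (translating ribosome affinity purification, TRAP). Each animal gave 1 library of the cleared homogenate, called Input, and 1 of the RNA held on the antibody beads, called Positive. All 6 libraries shared the tamoxifen treatment and the genotype, in which 1 Cx3cr1 allele carries Cre in place of receptor coding sequence and the other is intact, so transcripts of both alleles fall under the same gene name. Tissue was taken some weeks after tamoxifen, which lets short-lived blood monocytes be replaced while long-lived microglia and border macrophages keep the tag. No animal without Cre was analysed here, so RNA that stays on the beads without the tag has no direct measure, and the unbound fraction was not analysed here.

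Chemokines are small secreted or membrane-anchored proteins that guide cells through receptors coupled to inhibitory G proteins. In the brain the best known pair joins neurons, which make the membrane-anchored chemokine Cx3cl1 (fractalkine), to microglia, which carry its receptor Cx3cr1. Cxcl12 acts through Cxcr4 and is taken up by the scavenging receptor Ackr3, and it is known from vessels, meninges and the dentate gyrus. Cxcl16 is anchored in the membrane like Cx3cl1 and is made by macrophages, Cxcl14 is an ancient chemokine made by some neurons, and Cxcr2 is a receptor of neutrophils that oligodendrocyte precursors also carry.

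The set of RefSeq start sites used here covered 7 of the 9 members. The 250 bases before the start are given for 3 of them on the coding strand of GRCm38.p6 with CG dinucleotides in capitals. Cx3cr1 is shown because this locus drives Cre in these animals, and Cxcl12 and Cxcr4 are shown because they form a ligand and receptor pair whose RNA was higher in Positive.
Cx3cr1 (chr9:120068297-120068546, minus): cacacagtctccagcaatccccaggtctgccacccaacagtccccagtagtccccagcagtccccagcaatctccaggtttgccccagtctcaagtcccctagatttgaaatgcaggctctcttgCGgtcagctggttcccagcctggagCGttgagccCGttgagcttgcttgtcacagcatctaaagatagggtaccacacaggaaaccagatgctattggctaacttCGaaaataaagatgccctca
Cxcl12 (chr6:117168285-117168534, plus): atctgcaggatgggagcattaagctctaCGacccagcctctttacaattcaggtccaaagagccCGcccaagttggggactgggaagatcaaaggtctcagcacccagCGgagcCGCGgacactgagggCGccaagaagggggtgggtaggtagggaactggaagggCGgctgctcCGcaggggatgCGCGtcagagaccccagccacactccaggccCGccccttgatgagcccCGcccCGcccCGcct
Cxcr4 (chr1:128592300-128592549, minus): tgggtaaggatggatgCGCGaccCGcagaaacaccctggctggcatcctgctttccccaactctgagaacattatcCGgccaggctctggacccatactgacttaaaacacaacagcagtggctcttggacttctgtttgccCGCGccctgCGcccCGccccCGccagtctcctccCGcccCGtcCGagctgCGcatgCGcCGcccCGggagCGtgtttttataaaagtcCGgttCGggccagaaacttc
The Cx3cr1 stretch held 4 CG dinucleotides and the others held 14 and 19, against a median of 6 over all 32851 stretches of the same length in RefSeq. At least as many CG as in Cxcr4 were found in 19.7% of the stretches, as in Cxcl12 in 29.4% and as in Cx3cr1 in 62.2%. The letters GAGGAA, the core bound by the myeloid factor PU.1, were searched on both strands, where matches could overlap CG or not, and occurred in 23.3% of all stretches. They were in 0 of the 3 shown, and in those of Cx3cl1, Ccl3 and Cxcr2 among the 7 members with a stretch in the set used. A longer annotated Cx3cr1 transcript starts further upstream, and 1 of its exons covers the Cx3cr1 stretch.

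Library totals ran from 14879734 to 17757918 reads. Of the 15344 genes tested, 46% differed between Positive and Input at an adjusted p-value under 0.05 (edgeR quasi-likelihood test, Benjamini-Hochberg), 24% being higher and 22% lower in Positive, and in 56.5% the values of the 2 groups did not overlap. Among the marker lists, the 8 microglial genes were all higher, with a median log2 fold change of 4.62, and so were the 6 of border macrophages (4.17) and the 6 of endothelial cells (1.94). The 5 oligodendrocyte genes were all lower (-2.92), as were 6 of the 7 of leptomeninges and choroid plexus (-0.74) and 2 of the 5 of astrocytes (-0.37). None of the 6 neuronal genes was called by edgeR, 1 had an unadjusted p under 0.05 and 1 was called by DESeq2, and the median was 0.06. Of the 8 interneuron genes 4 were higher and 2 lower, of the 6 mural genes 1 was higher and 1 lower, and of the 8 immediate early genes 4 were higher. Of 5 monocyte markers 2 had a row, 1 higher and 1 lower, while the 8 neutrophil and 6 lymphocyte markers had no row. Positive of animal 208 stood apart in several marker lists. The median log2 ratio of Positive over Input of the same animal was 1.14 there for endothelial genes against 2.19 and 2.17 in animals 201 and 207, and -0.95 for mural genes against 0.14 and 0.14. The astrocyte median was -0.87 there against -0.13 and -0.27. The microglial and border macrophage medians were also lowest there, at 4.30 and 3.80, and the neuronal median was highest, at 0.25. The ratios of Cxcl12 and Cxcr4 were lowest in animal 208 too, so their values are given with and without that library.

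Of the 7 members, 4 were called higher in Positive (Cx3cr1, Cxcl16, Cxcr4 and Cxcl12) beside 24% of all genes, 2 were called lower (Cxcl14 and Cxcr2) beside 22%, and Cx3cl1 was not called. In 6 of the 7 the groups did not overlap, beside 56.5% of all genes. Cxcl16 passed the filter only through Positive and Cxcr2 only through Input, each the fraction where it was high. Their calls and their lack of overlap are therefore not independent of the filter. The sign of the ratio was the same in all 3 animals for each of the 7 members. Their median log2 fold change was 0.88, and over all genes tested it was -0.01.

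**Figure D1:**
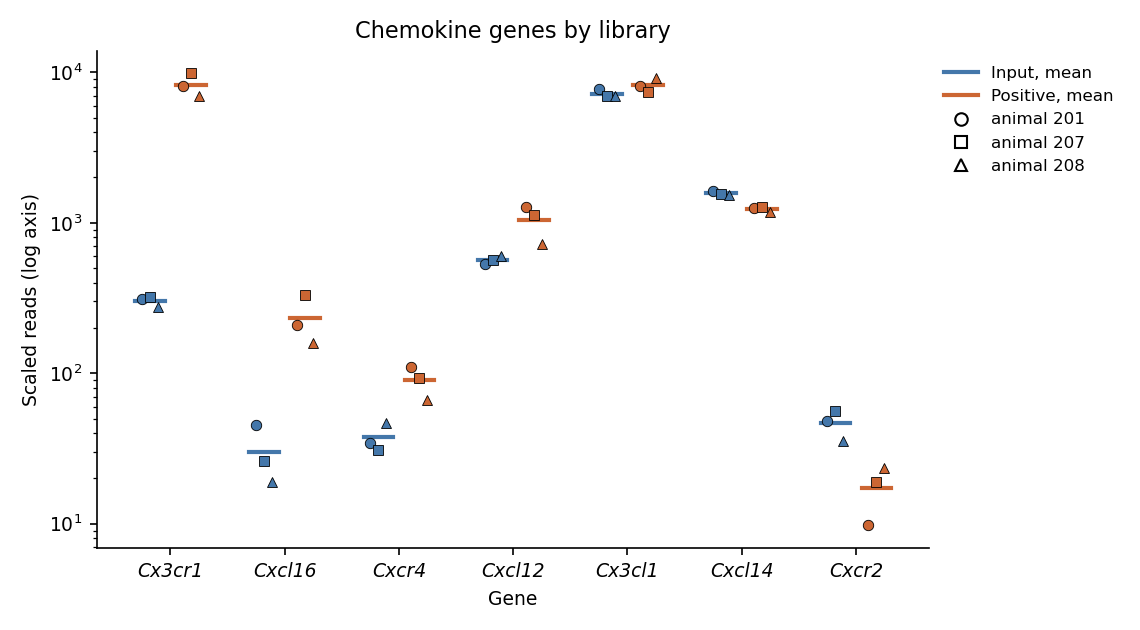
Scaled reads (log axis) of the 7 members in each library, with Input in blue and Positive in orange, a symbol per animal and a line at the mean of 3. Cx3cr1 rose from a mean of 303 to 8286 scaled reads, and Cx3cl1 is the member whose groups overlap.

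Cx3cr1 (chromosome 9, 119901616 to 120069879, minus strand, mm10) is the receptor for fractalkine and a defining gene of microglia. It had 310.3, 323 and 276 scaled reads in Input of animals 201, 207 and 208, and 8096, 9839 and 6922 in Positive, where scaled reads are deposited reads divided by a size factor of the library. Every Positive library was thus far above every Input library. The means were 303 ± 24.1 and 8286 ± 1468 (SD, n = 3), and the log2 fold change was 4.77 ± 0.14 (SE), or 27.3-fold (edgeR, adjusted p = 1.94e-10). By size of the log2 fold change Cx3cr1 ranked 46 of the 15344 genes. The log2 ratios were 4.70, 4.92 and 4.64 in animals 201, 207 and 208, a narrower spread (SD 0.15) than that of any other member but Cxcl14. The microglial list had medians of 4.54, 4.79 and 4.30 in the same animals. Since Cre was expressed from this same gene, enrichment of its RNA and tagging of its cells are not independent. The annotated span of Cx3cr1 runs past other genes through 1 long transcript, but its exons share 0 bases with exons of a gene on the same strand.

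Cx3cl1 (chromosome 8, 94772009 to 94782427, plus strand), the neuronal ligand, was abundant in both fractions. It had 7732, 6920.2 and 6929 scaled reads in Input of animals 201, 207 and 208, and 8065, 7428 and 9155 in Positive. The highest Input library lay above the lowest Positive library, so the groups overlapped. The log2 fold change was 0.19 ± 0.09 (SE) and the adjusted p was 0.113 (edgeR), which does not show that the level was the same. Without any 1 library the log2 fold change ran from 0.11 to 0.26, and no alternative gave a call. The log2 ratios of 0.06, 0.10 and 0.40 in the 3 animals stood beside medians of -0.01, 0.03 and 0.25 for the neuronal list, whose summed level was 66339 to 72129 scaled reads in Input against 70649.6 to 84003. The part of neuronal RNA in the Positive value of Cx3cl1 was not tested. In bulk RNA such as this, fewer cells of a type and less RNA per cell cannot be told apart.

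Set side by side per kb of the longest transcript, ligand and receptor were far apart in Input and close in Positive. In Input, Cx3cl1 was at 2170.1 ± 141 scaled reads per kb and Cx3cr1 at 67.5 ± 5.36 (SD, n = 3). In Positive they were at 2478 ± 264 and 1844 ± 327. The ratio of Cx3cl1 to Cx3cr1 per kb was 33.8, 29.0 and 34.0 in Input of animals 201, 207 and 208 and 1.35, 1.02 and 1.79 in Positive, so the 2 ranges did not meet. With the longest curated RefSeq transcript as length (3753 bases for Cx3cr1 in place of 4493), a choice made after the data were seen, Cx3cr1 spanned 1844 to 2622 and Cx3cl1 2362 to 2912 scaled reads per kb in Positive, which overlap.

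Cxcl16 (chromosome 11, 70453983 to 70459984, minus strand), the other membrane-anchored chemokine of the set and the ligand of Cxcr6, was the second most enriched member. Input held 45.2, 26.2 and 18.8 scaled reads in animals 201, 207 and 208, and Positive 209, 331 and 159.9. All Positive libraries exceeded all Input libraries by several-fold. The log2 fold change was 2.96 ± 0.32 (SE), or 7.77-fold (edgeR, adjusted p = 9.1e-06), and the log2 ratios of 2.18, 3.61 and 3.02 differed more among animals than those of Cx3cr1. Cxcl16 shares 552 exon bases with Zmynd15 on the opposite strand, and the libraries and their alignment kept strand.

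Cxcl12 (chromosome 6, 117168535 to 117181367, plus strand), the ligand of Cxcr4, was higher in Positive by less. It had 529, 563 and 598 scaled reads in Input of animals 201, 207 and 208, and 1278, 1119 and 722 in Positive. The groups did not overlap, and Positive of animal 208 lay nearest to Input. The means were 563 ± 34.6 and 1039.8 ± 286 (SD, n = 3). On the log2 scale the fold change was 0.88 ± 0.16 (SE; edgeR, adjusted p = 0.000724). Without Positive of animal 208 it was 1.09 ± 0.10 (adjusted p = 3.62e-07).

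Cxcr4 (chromosome 1, 128588199 to 128592293, minus strand), the signalling receptor for Cxcl12, was low in all libraries. Input held 34.6, 30.9 and 47.0 scaled reads in animals 201, 207 and 208, and Positive 111, 93.6 and 66.2. Here too Positive of animal 208 was the lowest of its group and Input of 208 the highest of its own, and the groups stayed apart. The log2 fold change was 1.27 ± 0.26 (SE; edgeR, adjusted p = 0.00177), and without Positive of animal 208 it was 1.45 ± 0.24 (adjusted p = 0.000242). Ackr3 (chromosome 1, 90203980 to 90216751, plus strand), which binds Cxcl12 and removes it, read 144, 178 and 161 in Input against 187, 229.8 and 211 scaled reads in Positive. Its groups did not overlap, yet the log2 fold change of 0.38 ± 0.15 (SE) was not called (edgeR, adjusted p = 0.0563). It was called with the animal as a block (0.38, adjusted p = 0.0392) and without Positive of animal 201 (0.45, adjusted p = 0.0453).

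The log2 ratios of Cxcl12 were 1.27, 0.99 and 0.27 in animals 201, 207 and 208 and those of Cxcr4 were 1.65, 1.57 and 0.49. Both were lowest in animal 208, as were the endothelial medians of 2.19, 2.17 and 1.14 and the mural medians of 0.14, 0.14 and -0.95. So were the astrocyte medians of -0.13, -0.27 and -0.87 and the microglial medians of 4.54, 4.79 and 4.30. All 6 endothelial genes were called higher, and their summed level was 1547 to 1869 scaled reads in Input against 4116 to 8305. For mural genes the sums were 2934 to 3042 and 1870.5 to 3705, and for border macrophages 168 to 232 and 2440.4 to 5251, with the medians 3.89, 4.47 and 3.80. No marker of the endothelial, mural and border macrophage lists was at 0 in any library. The part of these cell types in the values of Cxcl12 and Cxcr4 was not tested. Per kb, the ratio of Cxcl12 to Cxcr4 was 4.94 ± 0.883 in Input and 3.68 ± 0.17 in Positive (SD, n = 3), and the lowest Input ratio, 4.08, lay above the highest Positive ratio, 3.84.

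**Figure D2:**
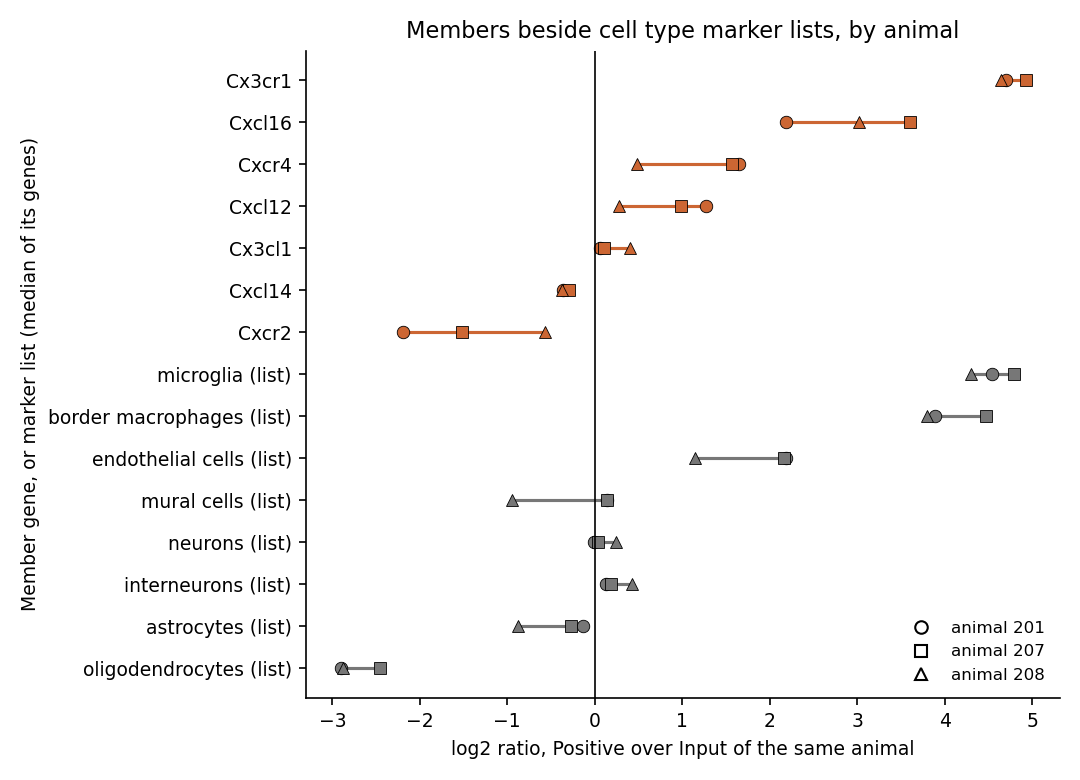
log2 ratio of Positive over Input of the same animal (scaled reads plus 1) for the 7 members in orange and the median over 8 marker lists in grey, with a symbol per animal and a line from the lowest to the highest. Cx3cr1 lies at 4.64 to 4.92 beside the microglial list at 4.30 to 4.79. Cxcl12, Cxcr4, endothelial and mural values are lowest in animal 208, as are the microglial, border macrophage and astrocyte medians.

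Cxcl14 (chromosome 13, 56288643 to 56296551, minus strand) was lower in Positive by a small and even step. It had 1624, 1551 and 1537 scaled reads in Input of animals 201, 207 and 208, and 1258, 1268 and 1186 in Positive. All 3 Positive libraries lay below all 3 Input libraries. The log2 fold change was -0.35 ± 0.07 (SE), or 78.7% of the Input level (edgeR, adjusted p = 0.00236), and the log2 ratios were -0.37, -0.29 and -0.37, the narrowest spread among the members (SD 0.047). In the same animals the interneuron list had medians of 0.13, 0.19 and 0.43, and the astrocyte list -0.13, -0.27 and -0.87. The interneuron median hides genes that went both ways. Of the 8, 4 were called higher, up to 1.66 for Vip, and 2 lower, Cck (-0.36) and Pvalb (-2.07). The part of interneurons and astrocytes in the Cxcl14 value was not tested.

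Cxcr2 (chromosome 1, 74153989 to 74161246, plus strand) was the member with the largest decrease and, in Positive, the fewest reads. It had 48.4, 55.8 and 35.2 scaled reads in Input of animals 201, 207 and 208, and 9.77, 18.8 and 23.5 in Positive. The groups did not overlap, though Input and Positive of animal 208 were the closest. The log2 fold change was -1.41 ± 0.33 (SE), or 37.5% of the Input level (edgeR, adjusted p = 0.00367), which ranked 274 of 15344 from the lowest. The oligodendrocyte list fell further, with a summed level of 24324 to 26446 scaled reads in Input against 3826 to 5213, and its medians of -2.91, -2.46 and -2.88 did not follow the Cxcr2 ratios of -2.20, -1.52 and -0.57 across animals. The 8 neutrophil markers had no row to set beside it. Deposited values of Cxcr2 were whole in 0 of the 6 libraries, and those of Cxcr4 in all 6. In expected counts reads may be split between genes. Cxcr1, a relative of Cxcr2, lies in the same gene family, and whether reads were shared between them was not tested.

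Divided by the length of the longest transcript, the members differed widely in level in either fraction. In Input the order was Cx3cl1 (2170.1), Cxcl14 (859.7), Cxcl12 (100.1), Cx3cr1 (67.5), Cxcr4 (20.8), Cxcr2 (15.2) and Cxcl16 (11.1 scaled reads per kb). Neighbours in this order were separate in every library down to Cxcr4, while Cxcr4 overlapped Cxcr2 and Cxcr2 overlapped Cxcl16. In Positive the order was Cx3cl1 (2478), Cx3cr1 (1844), Cxcl14 (677), Cxcl12 (185), Cxcl16 (86.4), Cxcr4 (50.0) and Cxcr2 (5.70), and only Cxcl16 and Cxcr4 overlapped as neighbours. Among the 15326 genes with a length, Cx3cr1 moved from percentile 34.9 in Input to 97.2 in Positive and Cxcr2 from 9.88 to 2.00. Cx3cl1 was at 98.0 and 98.2, Cxcl14 at 92.2 and 88.8, and Cxcl16 at 6.67 and 39.4. With RefSeq lengths, Cxcl16 (20.2 ± 9.13) was not the lowest in Input, where Cxcr4 was at 20.7 ± 4.66 and Cxcr2 at 15.3 ± 3.42 (SD, n = 3). With the same lengths, Cxcl16 (107 to 222) and Cxcl12 (127 to 225 scaled reads per kb) overlapped in Positive as well.

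**Figure D3:**
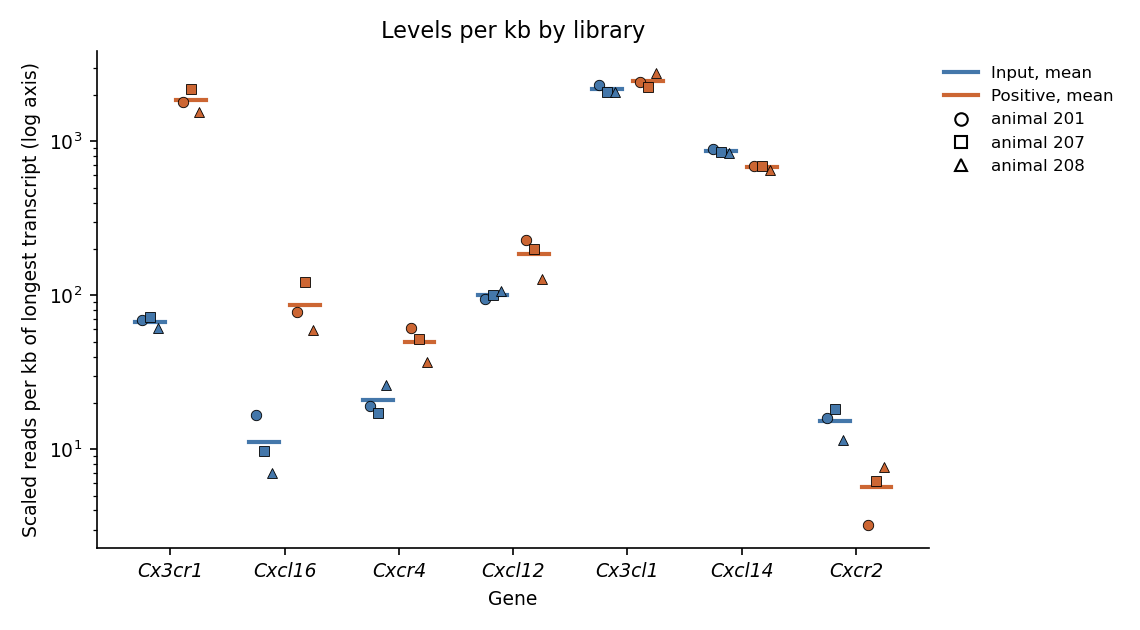
Scaled reads per kb of the longest annotated transcript (log axis) of the 7 members in each library, with Input in blue, Positive in orange, a symbol per animal and a line at the mean of 3. In Positive, Cx3cr1 at 1844 comes near Cx3cl1 at 2478, while in Input they stand at 67.5 and 2170.1.

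The wider chemokine system, a list of 64 mouse ligands and receptors, had 21 genes in the table, all of them tested. The test called 12 of them higher and 6 lower, beside 24% and 22% of all genes tested. Among the 14 that are not members 8 were called higher and 4 lower, and the median log2 fold change was 3.39, also with Ccl8 and Ccl24 set to their lower bounds. Ccl6, Ccl8, Ccl9, Ccl12, Ccl24, Pf4 and Ccrl2 passed the filter only through Positive, so their calls are not independent of it. The other 43 genes of the list were not analysed here. When genes had to average 100 scaled reads, 13 were tested and 10 called, 7 of them higher.

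Among the ligands that are not members, the higher group was made of CC chemokines known from myeloid cells, and Pf4. Ccl6 (chromosome 11, 83587882 to 83593087, minus strand) went from 14.3 ± 7.30 to 435 ± 132 scaled reads (SD, n = 3), which is 4.89 ± 0.30 (SE) on the log2 scale (edgeR, adjusted p = 3.85e-08). Ccl9, its neighbour on the chromosome and a close relative, went from 24.0 ± 9.61 to 464 ± 23.6, with a log2 fold change of 4.27 ± 0.21. Both belong to the same cluster of CC chemokine genes on chromosome 11. Ccl12, a monocyte attractant, had a log2 fold change of 3.94 ± 0.31. Pf4, platelet factor 4, is also a border macrophage marker and part of that list, and its log2 fold change was 4.40 ± 0.37, or 5.02 without Input of animal 201. Ccl8 and Ccl24, which border macrophages are known to make, had at most 3 reads in every Input library and means of 48.3 ± 17.9 and 83.8 ± 45.9 scaled reads in Positive. Against 3 reads per Input library they were at least 16.1-fold and 27.9-fold higher. The border macrophage and microglial lists were higher along with all 6 of these ligands, and their part was not tested.

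Among the lower ligands that are not members, Ccl27a fell by 0.96 on the log2 scale, Ccl25 by 1.05 and Ccl28 by 1.11. Ccl27a went from 437 ± 39.3 to 225 ± 37.0 scaled reads (SD, n = 3; edgeR, adjusted p = 0.000106) and Ccl25 from 153 ± 24.7 to 73.9 ± 3.33 (adjusted p = 0.000472). Ccl28, a mucosal chemokine, went from 78.9 ± 17.4 to 36.6 ± 12.0 (adjusted p = 0.00621). Ccl21a, a ligand that brings lymphocytes to lymph nodes, fell by 0.87 (adjusted p = 0.0253), but it was not called without Input of animal 207 (-0.68, adjusted p = 0.123), without Input of 208 (-0.85, adjusted p = 0.0686) or without Positive of 207 (-0.69, adjusted p = 0.0993). Ccl21a and Ccl27a have near-identical copies in the mouse genome, so their reads are uncertain, and Ccl25 shares 204 exon bases with Elavl1 on the opposite strand.

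Among the receptors outside the members, Ccrl2 was higher and the atypical receptor Ackr1 was not called. Ccrl2, which presents chemerin without signalling, went from 4.69 ± 1.37 to 34.0 ± 10.0 scaled reads (SD, n = 3), or 2.84 ± 0.40 (SE) as a log2 fold change (edgeR, adjusted p = 9.71e-05). Ackr1, which binds many chemokines on venules, had a log2 fold change of 0.15 ± 0.16 (adjusted p = 0.478) that was -0.047 without Positive of animal 208, and it shares 361 exon bases with Cadm3 on the same strand, so its value is uncertain.

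**Figure D4:**
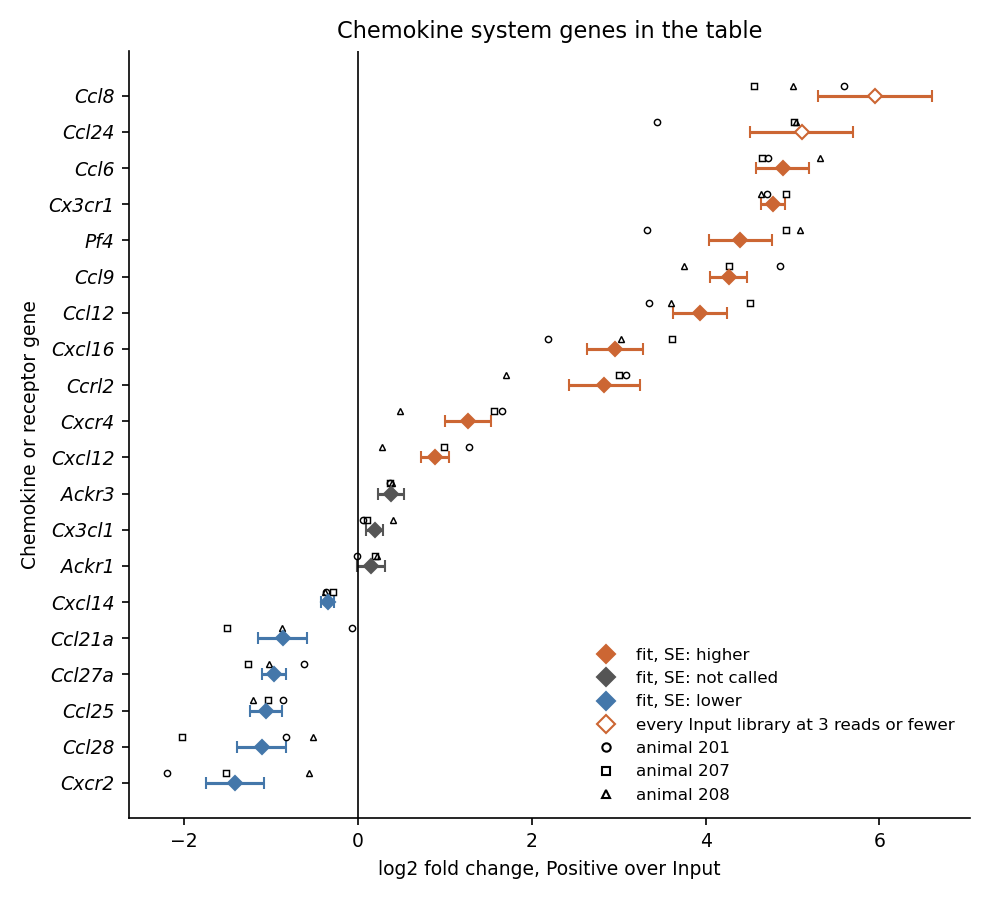
log2 fold change of Positive over Input (diamonds, bars are SE) for 20 chemokine system genes in the table, and the ratio in each animal (open symbols, scaled reads plus 1). Open diamonds are Ccl8 and Ccl24, whose fitted values have no Input level to stand on, and Ackr3, Cx3cl1 and Ackr1 in grey were not called.

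Both membrane-anchored ligands are released by proteases, of which Adam17 and Adam10 were higher in Positive. Adam17, the inducible sheddase, went from 297 ± 10.9 to 929 ± 163 scaled reads (SD, n = 3), or 1.64 ± 0.13 (SE) as a log2 fold change (edgeR, adjusted p = 3.08e-07). Adam10, the constitutive sheddase, went from 1129 ± 63.9 to 2125 ± 259, a log2 fold change of 0.91 ± 0.09 (adjusted p = 5.92e-06). Dpp4, which trims Cxcl12, had means of 26.8 ± 3.11 and 29.1 ± 5.13 scaled reads and was not called (log2 fold change 0.11 ± 0.28, adjusted p = 0.767). Of 12 chemokine-processing proteases 10 were tested, and 5 were higher, 0 lower and 5 not called, beside 24% higher and 22% lower among all genes. The largest log2 fold change among these proteases was that of Ctss, at 4.72 ± 0.14 (SE).

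Of 55 genes that act downstream of chemokine receptors 53 were tested. Of these 38 were called higher and 2 lower, beside 24% and 22% of all genes tested, and the median log2 fold change was 0.94. Among the highest of the signalling and protease genes were Rgs1, Was and Itgam. Rgs1, which switches off inhibitory G proteins after receptor activation, had 0 reads in each Input library and 49.3, 55.6 and 43.5 scaled reads in the Positive libraries, at least 16.5-fold higher than 3 reads per Input library. Was, an actin regulator of blood cells, had a log2 fold change of 5.22 ± 0.22, and Itgam, the CD11b integrin subunit, one of 4.72 ± 0.15 (SE). Rgs1 and Was passed the filter only through Positive.

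At the low end of the called genes stood components with wide expression. Grk3, a kinase that desensitizes receptors such as Cxcr4, fell by 0.61 on the log2 scale, from 2415 ± 121 to 1579 ± 59.3 scaled reads (SD, n = 3; edgeR, adjusted p = 2.86e-05). Gnai1, an inhibitory G protein subunit, fell by 0.32 (adjusted p = 0.0135), and the call was lost without Input of animal 207 (-0.27), Input of 208 (-0.31) or Positive of 207 (-0.27). Akt1 (0.22, adjusted p = 0.0279) and Arrb1 (0.25, adjusted p = 0.0151), a kinase and an arrestin that act on many receptors, were higher by little. With total count scaling neither was called (0.14 and 0.17), Arrb1 was not called without Input of animal 207 (0.24), and Akt1 was called in only 1 of the 6 fits that left out a library, the one without Positive of animal 208.

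The genes most alike to 3 of the members were sought among 12114 others that averaged 100 scaled reads or more, by the root mean square difference of log2 profiles over the 6 libraries, each set to its Input mean. For Cx3cr1 these were Ctss, Lag3 and Cd53, at differences of 0.064, 0.065 and 0.066, and their log2 fold changes were 4.72, 4.75 and 4.79. For Cx3cl1 they were Mn1, Pgbd5 and Snap25 (0.026, 0.026 and 0.035), with log2 fold changes of 0.17, 0.17 and 0.21. For Cxcl12 they were Svil, Ifitm3 and Macf1 (0.072, 0.073 and 0.074), with 0.87, 0.82 and 0.85. With a pseudocount of 0.1 or of 5 in place of 1, 2 of the 3 genes for Cx3cr1 were again among its 3, and all 3 for Cx3cl1 and for Cxcl12.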

How the data were processed

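Directional poly(A) libraries were prepared from Input and Positive RNA of the same 3 hippocampi and sequenced as read pairs. The authors trimmed reads, aligned them to mm10 in Strand NGS with strand, counted them per Ensembl gene and kept genes that reached 20 reads in all libraries of a fraction. The deposited raw columns are expected counts, in which reads may be split between genes. Of the values 17.4% to 23.1% were whole (within 1e-06). The even share of those under 60 reads was 64.7% to 69.3%, and how mates were counted was not given in the sources used here. The deposited normalized columns, on a log2 scale relative to the gene's Input median, were not tested. Genes under the authors' limit were not analysed here.

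Expected counts were rounded and fitted in R 4.3.3 with edgeR 4.0.16 (quasi-likelihood, median-of-ratios scaling, unpaired as in the study), over the 15344 genes above 20 scaled reads in every library of a fraction. Positive and Input were grouped by the fraction label. Alternatives were TMM and total count scaling, DESeq2 1.42.0, other filters, halved reads, an animal block and leaving out each library. The labels pair the fractions by animal, and deviations from the fraction mean correlated at 0.27, 0.085 and 0.15 within animals and at -0.18 to 0.05 between them. Where all Input libraries had at most 3 reads, folds are lower bounds against 3 reads per library. The SE of a log2 fold change came from the F statistic of the fit, which includes spread between libraries. Lengths came from GENCODE M21. The method was tested on simulated data.

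The members, the gene lists and the marker lists were chosen with earlier results of these data known. Genes named were the 9 members, every chemokine system gene in the table, and the 4 highest and 4 lowest called signalling or protease genes whose sign was the same in all 3 animals. Adam10, Adam17, Dpp4 and the 3 genes most alike to Cx3cr1, Cx3cl1 and Cxcl12 were also named. A few genes taken by this rule are left out of the text and plots and not reported here.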

Additional observations from a re-analysis of the deposited data

How the results depend on the processing

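Of 89 refits of the 7 members under the alternatives, 89 kept the direction and the side of the threshold. The number of members called was 6 in every setting but the filter at a mean of 100 scaled reads, where 5 members were tested and 4 called. That filter left 10 calls among the wider chemokine system against 18, because fewer genes were tested. The count over all genes was 7053, and 5540 to 7265 without a single library. Of the calls, 52.1% were in the higher direction, and under total count scaling 41.6%. With the replicate block by animal 7572 genes were called, and among the named chemokine genes the block changed the call of Ackr3 only. Of 434 refits of the other named genes 416 kept direction and call, 14 lost the call, 2 gained it and 2 reversed. The reversed ones were Ackr1 without Positive of animal 208 (-0.047) and Dpp4 without Positive of animal 201 (-0.0076), both not called in any setting, and without single libraries they ran from -0.047 to 0.29 and from -0.0076 to 0.24. The cause was not tested. Length moved the level per kb in Positive of Cxcl16 (156 with RefSeq transcripts against 86.4), Cx3cr1 (2208 against 1844), Cx3cl1 (2091 with the union of exons) and Cxcl12 (127). Depth limits Cxcr2, Cxcr4 and Cxcl16 most among the members, with under 50 scaled reads on average in a fraction.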
